A study of Mus musculus with 2 samples.

Results

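The mitochondrial ribosomal protein genes are the nuclear genes named Mrpl and Mrps, and they were chosen as all peaks whose assigned gene symbol starts with Mrpl or Mrps followed by a digit, without pseudogenes. This rule found 148 of the 99797 peaks of the anti-FLAG library, and the 148 peaks belonged to 50 of the 78 genes of the family in the annotation (64.1%). Over all protein-coding genes, 71.0% had an assigned peak. The family has 49 genes named for the large subunit (Mrpl) and 29 named for the small subunit (Mrps). Peaks of 1 gene share that gene, so they are not independent of each other.

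CUT&Tag marks chromatin where an antibody binds by tethering the transposase Tn5 to it, which cuts and tags the DNA nearby. The antibody was directed at FLAG, the tag on PARIS, a zinc-finger repressor that is encoded by Zfp746 in the mouse and is known as a substrate of the ubiquitin ligase parkin. The data came from the hippocampus of untreated C57BL/6J mice with the genotype CamK-PARIS, as 1 library made with anti-FLAG and 1 made with anti-IgG. The labels give this genotype for both groups and give no age, number of animals or promoter of the transgene, and mice without the transgene were not analysed here. With 1 library per antibody there is no replicate check of any value below, and no difference was tested; intervals are exact 95% binomial intervals and cover counting error only. The tissue label was not checked, since a peak is not a measure of expression.

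The mitochondrial ribosome makes the few proteins encoded by mitochondrial DNA, all of them parts of the respiratory chain and ATP synthase. Its RNAs come from the mitochondrial genome, while all its proteins are made in the cytosol from nuclear genes and imported. Proteins with low numbers carry names shared with bacterial ribosomal proteins, and proteins with higher numbers were mostly added in the mitochondrial lineage. The names follow the subunit with exceptions: Mrps30 and Mrps18a were later placed in the large subunit, and Mrps36 belongs to the 2-oxoglutarate dehydrogenase complex. Factors known to bind promoters of nuclear genes for mitochondrial proteins include NRF1, the ETS factor GABPA and YY1, and PARIS itself has been reported to bind an insulin response sequence (IRS).

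Examples of the motif matches are shown first, because the counts of motifs given later rest on such matches. Each line is 30 bases around a match that lay in the 200 bp window centred on the region of maximum signal of a peak within 1 kb of a transcription start site (TSS), and the flanking bases can pass the edge of the window. Of the 23 matches in these windows, all NRF1 and YY1 matches are shown, with 4 of the 11 for ETS and 2 of the 4 for IRS. The windows can be wider than the peak: 19 of the 23 matches lay inside the peak. Those for NRF1 in Mrpl30 and Mrpl40, for YY1 in Mrps27 and for IRS in Mrps35 (not shown) lay beside it. Sites are from GRCm38.p6 (mm10), written 5′ to 3′ on the strand of the gene, with the matched motif in capitals. The motifs searched on both strands were GCGCNTGCG for NRF1, CCGGAAG for ETS, AANATGGCG for YY1, and TATTTTT or TATTTTG for IRS, so a capital stretch can also be the reverse complement.
Mrpl17, NRF1, chr7:105811080-105811109, minus strand: gccgagttactGCGCATGCGtcctctgaga
Mrpl17, NRF1, chr7:105811117-105811146, minus strand: aggctctgatgCGCACGCGCaaacgcggta
Mrpl30, NRF1, chr1:37890384-37890413, plus strand: tgacgccgctGCGCCTGCGctgtcttctat
Mrpl40, NRF1, chr16:18876419-18876448, minus strand: gaatacccaggGCGCGTGCGcgggctttgc
Mrpl23, ETS, chr7:142533085-142533114, plus strand: tagcgcggcctCCGGAAGcgagggggcgct
Mrpl52, ETS, chr14:54426851-54426880, plus strand: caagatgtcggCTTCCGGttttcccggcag
Mrps14, ETS, chr1:160195291-160195320, plus strand: ctgctgcggacCTTCCGGcaggtcaggccc
Mrps27, ETS, chr13:99344727-99344756, plus strand: tggtaggaccaCTTCCGGcggaggcgggct
Mrpl1, YY1, chr5:96210150-96210179, plus strand: cggaacagtcAACATGGCGgcggccgtaag
Mrps14, YY1, chr1:160195254-160195283, plus strand: ctgggcagacAACATGGCGgcgtccgtgct
Mrps24, YY1, chr11:5707647-5707676, minus strand: cgcgccggcccAAGATGGCGtggtccgcgt
Mrps27, YY1, chr13:99344790-99344819, plus strand: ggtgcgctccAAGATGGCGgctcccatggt
Mrpl46, IRS, chr7:78783498-78783527, minus strand: ctggattaacggTATTTTGgggggttcaag
Mrps9, IRS, chr1:42903708-42903737, plus strand: cctgcaggaatTATTTTGgccttaaggcat

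The 4 YY1 matches all lay on the strand of the gene, and in all 4 the ATG inside the match was a start codon annotated in GENCODE M21. Among all 196 peaks within 1 kb of a TSS with a YY1 match, 71 (36.2%, 29.5 to 43.4) had an annotated start codon inside it. Measured from the middle of the match, the pair of NRF1 matches in Mrpl17 lay 32 bp before and 5 bp after the gene's 5′ end. In Mrps27 the ETS match lay 45 bp before the 5′ end and the YY1 match 18 bp after it. In Mrps14 both matches lay after the 5′ end, YY1 at 53 bp and ETS at 90 bp. A match of letters is a description and does not show that a factor was bound.

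Longer stretches before the start show promoters with and without a peak assigned to the gene. They are from the RefSeq promoters of GRCm38.p6, end at the base before the RefSeq start, were kept only up to the nearest annotated exon, and carry matches to NRF1, ETS or YY1 in capitals. Mrpl52 had an assigned peak within 1 kb, Mrpl43 had a peak over its start that was assigned to its neighbour Twnk, and Mrpl45 had no peak within 1 kb.
Mrpl52, chr14:54426659-54426908, plus strand: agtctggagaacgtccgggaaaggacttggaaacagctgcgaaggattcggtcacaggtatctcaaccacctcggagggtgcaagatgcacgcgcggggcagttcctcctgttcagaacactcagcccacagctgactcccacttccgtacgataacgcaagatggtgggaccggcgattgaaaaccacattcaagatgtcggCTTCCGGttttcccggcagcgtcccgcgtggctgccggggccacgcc
Mrpl43, chr19:45006443-45006557, minus strand: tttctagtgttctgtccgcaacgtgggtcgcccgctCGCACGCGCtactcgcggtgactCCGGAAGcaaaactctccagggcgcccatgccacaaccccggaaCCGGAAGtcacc
Mrpl45, chr11:97315466-97315715, plus strand: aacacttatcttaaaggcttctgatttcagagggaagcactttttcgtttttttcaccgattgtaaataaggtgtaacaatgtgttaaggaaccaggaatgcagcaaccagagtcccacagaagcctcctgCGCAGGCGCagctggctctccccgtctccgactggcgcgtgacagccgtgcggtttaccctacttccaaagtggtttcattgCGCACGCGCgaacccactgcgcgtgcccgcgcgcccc

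The stretch of Mrpl52 held 1 ETS match, with its middle 44 bp before the gene's 5′ end. In Mrpl43 there were 2 ETS matches and 1 NRF1 match in 115 bp. The stretch of Mrpl45 held 2 NRF1 matches although the nearest peak was 13140 bp away, so in this gene the letters were there without a peak.

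Within 1 kb of a TSS, 46 of the 148 peaks were found (31.1%, 23.7 to 39.2), against 15.3% of all 99782 annotated peaks. The region of maximum signal lay over the TSS itself in 16 peaks (10.8%, 6.31 to 17.0), against 3.03% of all peaks. A further 16 peaks within 1 kb lay downstream and 14 upstream. The median distance to the assigned TSS was 6214.5 bp in the family and 14783 bp over all peaks. The authors' annotation placed 62 peaks (41.9%) in promoters, which reach to 3 kb, 43 (29.1%) in introns, 38 (25.7%) in distal intergenic sequence and 4 in exons. Over all peaks promoters held 24.6%, introns 38.0% and distal intergenic sequence 31.9%. Peaks of the family were thus closer to gene starts than peaks of the whole list. So were peaks of other gene sets, of which 33.1% (proteasome), 29.1% (nuclear-encoded respiratory chain) and 26.8% (cytosolic ribosomal proteins) lay within 1 kb. Their median distances were 3252, 6741 and 10215 bp. The genes of the mitochondrial ribosomal family are short: the median length was 7899.5 bp, against 17433 bp over all protein-coding genes. Whether gene length accounts for the shorter distances was not tested.

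**Figure D1:**
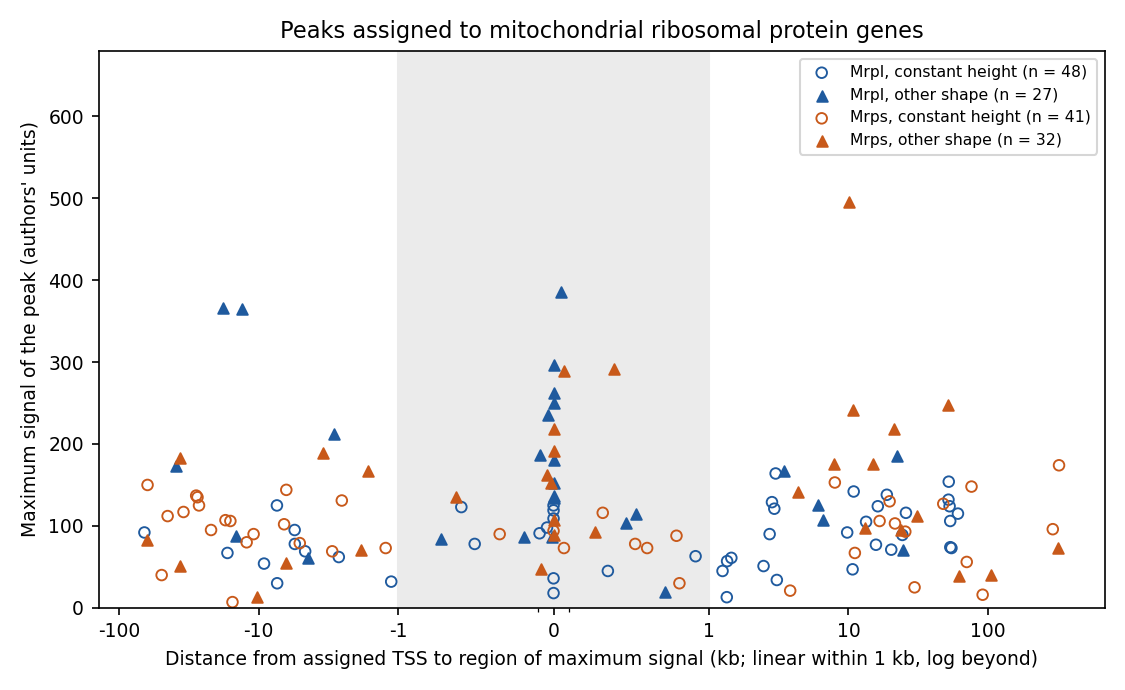
Each point is 1 of the 148 peaks, with the distance of its region of maximum signal from the assigned TSS in kb (linear within 1 kb, log beyond, negative upstream) and the authors' maximum signal. Blue is Mrpl and orange Mrps, open circles are peaks of constant height, and the grey band marks 1 kb, which holds 46 peaks, with the highest point of the band at 386.

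Counted by gene, 35 of the 78 genes had an assigned peak within 1 kb of a TSS (44.9%, 33.6 to 56.6). Over all 21911 protein-coding genes this share was 41.6%, which lies inside the family's interval. Grouped by name, Mrps genes had such a peak in 14 of 29 (48.3%, 29.4 to 67.5) and Mrpl genes in 21 of 49 (42.9%, 28.8 to 57.8). The 29 include Mrps18a, Mrps30 and Mrps36, which had none. Genes with bacterial-type numbers, up to L36 and S21, had one in 17 of 44 (38.6%, 24.4 to 54.5), and genes with higher numbers in 18 of 34 (52.9%, 35.1 to 70.2). The intervals of both pairs overlap widely, and the differences were not tested.

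The authors' table gives each peak to 1 gene, and many genes of the family start beside another gene. A protein-coding gene on the opposite strand started within 1 kb of 33 of the 78 genes (42.3%), against 10.8% of all protein-coding genes. When every peak counted, whatever gene it was assigned to, 42 of the 78 genes had a peak within 1 kb of the 5′ end (53.8%, 42.2 to 65.2). The share over all protein-coding genes was 38.1%, below that interval. Of the 33 genes with a neighbour, 22 (66.7%) had such a peak, against 58.3% of all genes with a neighbour. Of the 45 genes without one, 20 (44.4%) had a peak, against 35.7% of all genes without one. Intervals were not computed for the shares split by neighbour, so these differences cannot be set against counting error. The share of genes with a start peak was close in the cytosolic ribosomal protein genes (55.4%), the nuclear-encoded genes of the respiratory chain (53.8%) and the proteasome genes (54.0%). By assigned peaks within 1 kb of a TSS the shares of these sets were 57.6%, 47.3% and 64.0%, against 44.9% in the family.

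**Figure D2:**
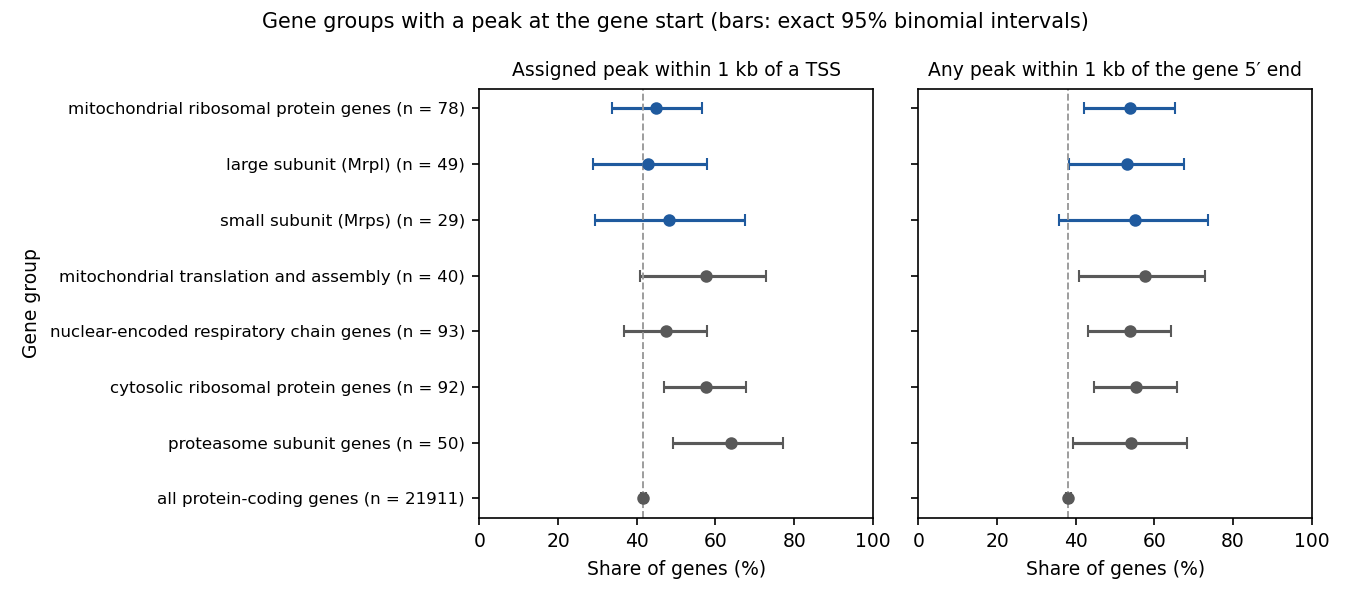
Share of genes in percent with an assigned peak within 1 kb of a TSS (left) and with any peak within 1 kb of the gene's 5′ end (right), with exact 95% binomial intervals and the number of genes n; subunits are taken from the gene names. The dashed line is the share over all protein-coding genes: the family's interval holds it on the left (41.6%) and lies above it on the right (38.1%).

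In 14 genes the nearest peak lay within 1 kb of the 5′ end and had gone to another gene. Such genes were not counted over all protein-coding genes, so the 14 have no background. Mrpl47, a large-subunit gene, shared the highest of these peaks with Ndufb5, a gene of respiratory complex I, at chr3:32736718-32737343 with a maximum signal of 458. That peak did not cover the 5′ end of Mrpl47, which lay 749 bp from its region of maximum signal. Mrps21 started at a peak of 252 assigned to C920021L13Rik. Mrpl43 started at a peak of 219 given to Twnk, which encodes the mitochondrial DNA helicase. Mrps7 started at a peak of 210 given to Gga3. Mrpl36 shared a peak of 84 with the complex I gene Ndufs6, and Mrpl49 a peak of 57 with Fau, which encodes a cytosolic ribosomal protein. One peak lay at the starts of 2 members: chr7:78783450-78783657, of constant height at 119, covered the start of Mrpl46 and lay 332 bp from the start of Mrps11. The remaining genes of this kind were Mrpl2, Mrpl9, Mrpl18, Mrpl32, Mrpl33, Mrps18b and Mrps34, with maximum signals between 8 at Mrpl9 and 142 at Mrpl32. In the opposite direction, 6 genes had their assigned peak within 1 kb of another annotated TSS but none within 1 kb of the 5′ end: Mrpl14, Mrpl37, Mrpl58, Mrps9, Mrps24 and Mrps35. These 6 have no background over all genes either.

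The 46 peaks within 1 kb had a median maximum signal of 108 (quartiles 84.5 and 159.5), against 116 (78 and 172) over all peaks within 1 kb. The values ran from 18 to 386. The highest 10% of all peaks by maximum signal took in 9 of the 46 (19.6%), against 20.99% of all peaks within 1 kb. For Mrpl genes the median was 115 and for Mrps genes 94. The heights of the family's gene-start peaks therefore lay in the range of gene-start peaks as a whole.

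Among Mrpl genes, Mrpl48 had the highest peak within 1 kb of a TSS. It spanned chr7:100607358-100608167, reached a maximum of 386 and a total signal (coverage summed over its bases) of 225068, and ranked 437 of all peaks by total signal. Its region of maximum signal lay 50 bp downstream of a TSS. Mrpl23, whose bacterial counterpart lines the exit of the peptide tunnel, followed with 297 at chr7:142532910-142533847, 4 bp from the TSS of one of its transcripts. The peak of Mrpl1, named for the protein of the L1 stalk, reached 262 at chr5:96209504-96210206, with its region of maximum signal over an annotated TSS and 529 bp from the gene's 5′ end. Mrpl30 had 250 at chr1:37890407-37891152, over its 5′ end, and Mitd1 on the other strand started 66 bp from that 5′ end. Mrpl17 had 235 at chr7:105810610-105811371, and Mrpl52 had 187 at chr14:54426416-54426885.

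Among Mrps genes, Mrps28 and Mrps33 stood highest. The peak of Mrps28 reached 292 at chr3:8923414-8923865, 390 bp downstream of the TSS. Mrps33 had 289 at chr6:39810452-39810842, 70 bp downstream, and a separate lower peak of 89 over the start. Mrps24, the counterpart of bacterial S3, had 218 at chr11:5707330-5707889, over a TSS inside the gene: its YY1 match lay 8019 bp from the 5′ end. Mrps14 had 191 at chr1:160194637-160195455, over the 5′ end. Of these 10 highest gene-start peaks, 6 were in Mrpl and 4 in Mrps genes, and 0 were of constant height.

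**Figure D3:**
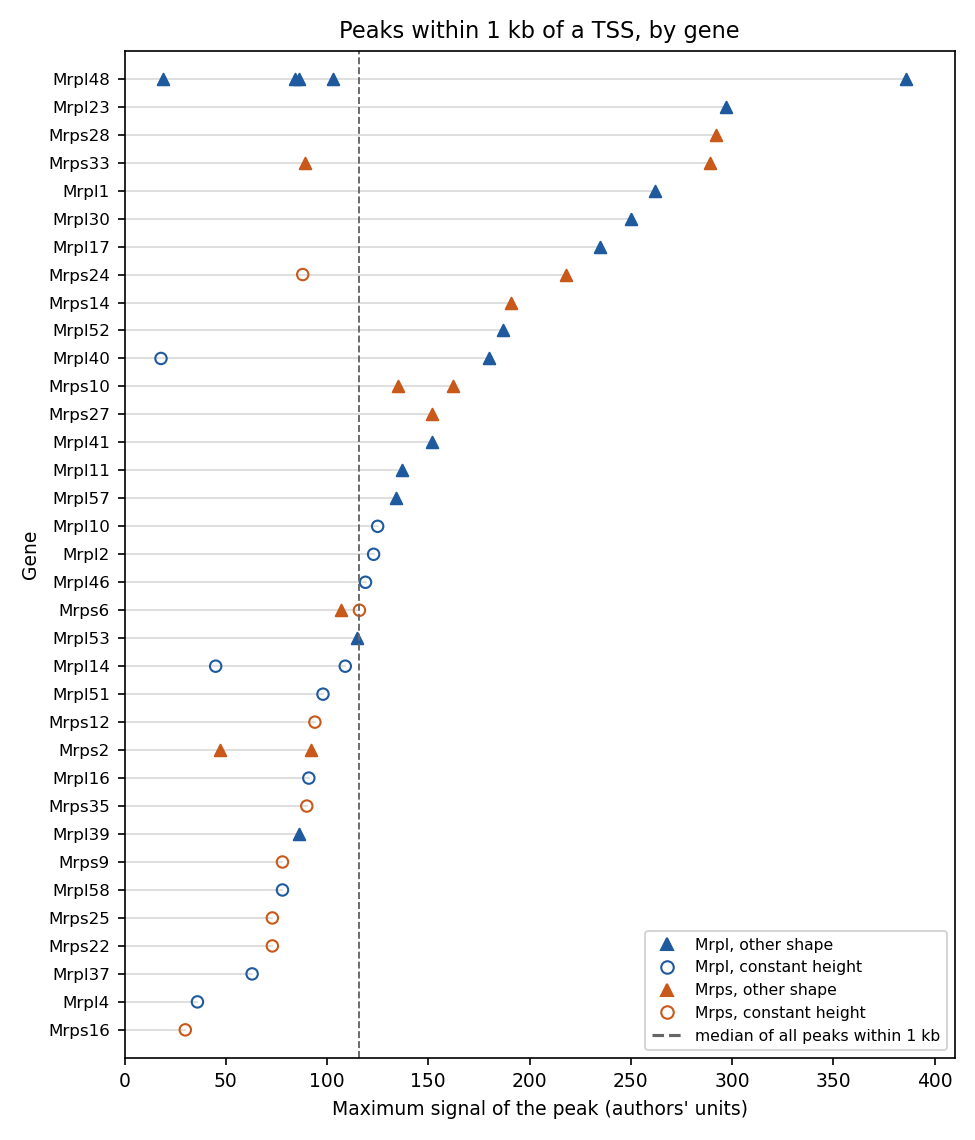
Maximum signal in the authors' units of every peak within 1 kb of a TSS, for the 35 genes that have one, in the order of the highest peak. Filled triangles are peaks with a varying height, open circles peaks of constant height, and the dashed line is the median of all peaks within 1 kb (116); Mrpl48 has 5 points, from 19 to 386.

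At the other end, the lowest peaks within 1 kb were those of Mrpl40 (18, with a second peak of 180), Mrpl48 (19, one of 5), Mrps16 (30), Mrpl4 (36) and Mrpl14 (45, with a second of 109). Genes with 2 or more peaks within 1 kb numbered 8, and such genes were not counted over all protein-coding genes. Mrpl48 had 5, spread over several annotated starts, and Mrpl14, Mrpl40, Mrps2, Mrps6, Mrps10, Mrps24 and Mrps33 had 2 each. The widest peak near a start, 1127 bp with a maximum of 115, covered the whole of Mrpl53, a gene of 900 bp.

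Many peaks had a constant height, which means that their total signal was at least 99% of the maximum times the width. In the family these were 89 of 148 (60.1%, 51.8 to 68.1), against 63.3% of all annotated peaks. Within 1 kb of a TSS they were 19 of 46 (41.3%), against 44.5% of all peaks there. Their maximum signal stopped at 125, while the 27 other peaks near starts had a median of 152 and reached 386. In 15 genes every peak within 1 kb was of constant height: Mrpl2, Mrpl4, Mrpl10, Mrpl14, Mrpl16, Mrpl37, Mrpl46, Mrpl51, Mrpl58, Mrps9, Mrps12, Mrps16, Mrps22, Mrps25 and Mrps35. Without peaks of constant height, 20 of the 35 genes with an assigned peak within 1 kb kept one, which is 25.6% of the family. Over all protein-coding genes, 6198 of 9122 kept one, which is 28.3% of all. Mrps12, whose bacterial counterpart takes part in decoding, illustrates the narrow form, with a peak of 56 bp and constant height 94 over its start.

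No peak was assigned to 28 of the 78 genes. The Mrpl genes were Mrpl9, Mrpl12, Mrpl13, Mrpl18, Mrpl19, Mrpl20, Mrpl22, Mrpl24, Mrpl27, Mrpl34, Mrpl36, Mrpl38, Mrpl43, Mrpl44, Mrpl47, Mrpl50, Mrpl54 and Mrpl55. The Mrps genes were Mrps5, Mrps7, Mrps11, Mrps15, Mrps17, Mrps18b, Mrps18c, Mrps26, Mrps31 and Mrps34. As described above, 9 of these 28 had a peak within 1 kb of the 5′ end that was given to another gene. A further 15 genes had assigned peaks only beyond 1 kb: Mrpl3, Mrpl15, Mrpl21, Mrpl28, Mrpl32, Mrpl33, Mrpl35, Mrpl42, Mrpl45, Mrpl49, Mrps18a, Mrps21, Mrps23, Mrps30 and Mrps36. For the 36 genes without any peak within 1 kb of the 5′ end, the nearest peak lay at a median of 9097 bp. The farthest was that of Mrpl13, at 64689 bp. Mrpl12, the protein of the ribosomal stalk, had its nearest peak 17097 bp from the start, at a peak of 193 assigned to Arl16. A missing peak means only that none was listed, since the sequencing depth is unknown.

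The family had 1.90 peaks per gene, against 3.88 over all protein-coding genes. Within the family the number was uneven, and the same spread was not counted over all genes. Of the 50 genes with a peak, 19 had 1, 21 had 2 to 4 and 10 had 5 or more, and these 10 held 72 of the 148 peaks. Mrps6 had the most (14), followed by Mrpl35 (9), Mrpl48 (8) and Mrps27 (7), while Mrpl46, Mrps9, Mrps10 and Mrps30 had 6 each.

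Mrps6, the counterpart of bacterial S6, had a peak of 107 over its 5′ end and one of 116 just downstream. Its strongest peak lay far from the start, at chr16:92157429-92159520. This peak was 2092 bp wide, the widest of the family, with a maximum of 247 and the highest total signal of the family, 227075. It lay 51932 bp from the assigned TSS in intron 2 of a transcript of Gm49711, a gene model that overlaps the Mrps6 locus. Of the 14 peaks, 6 lay in Gm49711 and outside the Mrps6 body, 5 of them also inside Gm41496.

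Mrpl35 showed the opposite of a start pattern. None of its 9 peaks lay within 1 kb of a TSS, and 8 lay in introns 3 and 6 of the neighbouring gene Reep1, which encodes a protein that shapes the endoplasmic reticulum. The highest of these reached 185 in intron 6 of Reep1, at chr6:71801239-71801899. The peak nearest to the start of Mrpl35 was assigned to Immt, 4696 bp away, and had a maximum of 661.

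In Mrps27, which encodes a protein with pentatricopeptide repeats, the highest peak of the whole family lay in intron 2, at chr13:99355365-99356346. It reached 495 at 10046 bp from the TSS, while the peak at the start reached 152. Intron 2 held 3 more peaks, of 175, 67 and 106, and intron 4 held peaks of 218 and 25. In this gene the peaks of 495, 218 and 175 inside the body were thus higher than the peak at the start. Those of 106, 67 and 25 were lower. In Mrpl48 the peak near the start (386) was above the other 7, which reached at most 107.

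**Figure D4:**
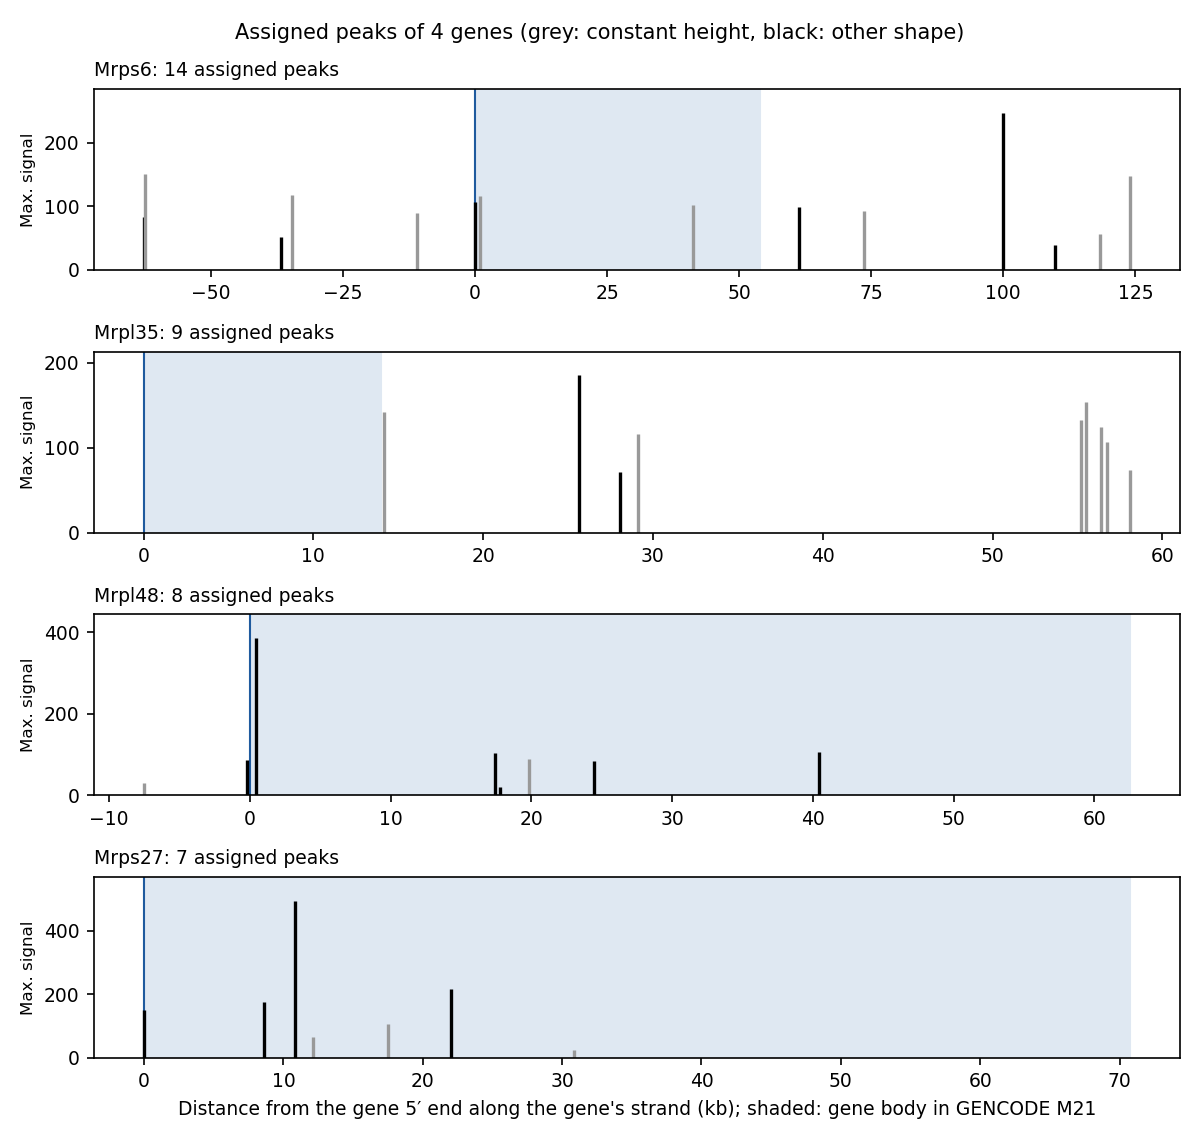
Assigned peaks of the 4 genes with the most peaks, as lines placed where the signal is highest, with the distance from the gene's 5′ end along its strand in kb on the x axis and the authors' maximum signal on the y axis. Blue shading is the gene body, black lines have a varying height and grey lines a constant height; Mrpl35 has no line inside its body, and the highest line of Mrps27 (495) stands inside the gene.

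Of the 102 peaks beyond 1 kb of a TSS, 28 lay in the body of the gene they were assigned to, 31 lay only in other annotated genes and 43 lay in no annotated gene. Besides Reep1 and Gm49711, Trerf1 held 3 peaks of Mrps10, AC110562.2 held 3 of Mrps18a and Cpne4 held 2 of Mrpl3. For 19 of the 102 peaks the start of another protein-coding gene was nearer than that of the assigned gene. These placements were not counted over all 84500 peaks beyond 1 kb, so the family's counts have no background. Tall peaks occurred here too: one of 366 lay 18049 bp upstream of Mrpl46 at chr7:78801063-78801907, and one of 365 lay 13140 bp upstream of Mrpl45 at chr11:97302200-97302661. Mrps23 had a peak of 241, 1016 bp wide, at 10726 bp downstream of its TSS. The farthest assignment belonged to Mrps30, which had 6 intergenic peaks from 23897 to 321545 bp away with maximum signals from 16 to 174. Some of these lay nearer than a peak of Mrps28, which was 105408 bp from its TSS and inside its own gene. The median maximum signal beyond 1 kb was 100 in the family and 99 over all peaks. The rule behind assignments at such distances is not stated, and they do not tie the peak to the gene.

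Motif matches were counted in the 200 bp windows at the 46 peaks within 1 kb and compared with the 15278 such windows over all genes. The ETS motif was present in 10 windows of the family (21.7%, 10.9 to 36.4), against 4.54% of all. The YY1 motif was present in 4 (8.70%, 2.42 to 20.8), against 1.28%. The NRF1 motif was present in 3 (6.52%, 1.37 to 17.9), against 3.51%, which lies inside the family's interval. In windows of 400 bp, NRF1 was present in 8 of the 46 (17.4%, 7.82 to 31.4), against 5.83% of all, and ETS in 15 (32.6%, 19.5 to 48.0), against 8.29%, so at this width the NRF1 share over all peaks lay below the family's interval. The insulin response sequence was present in 4 windows (8.70%, 2.42 to 20.8), against 5.41% of all, which lies inside the family's interval. Without peaks of constant height it was present in 1 of 27 windows (3.70%), against 3.76% of all. Beyond 1 kb it was present in 12 of the family's 102 windows (11.8%). NRF1, ETS and YY1 matches were found in 0 of those 102 windows, where a count of 0 allows up to 3.55%. Motifs were not counted over all peaks beyond 1 kb, so the shares of the 102 windows have no background. The SP motif GGGCGG was present in 32.6% against 29.7%, the E-box CACGTG in 2.17% against 4.69%, and the CRE motif TGACGTCA in 0 windows against 0.831%. The GC content of the windows within 1 kb had a median of 58.25%, against 57.0% over all, and it was 47.0% beyond 1 kb in the family.

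The promoters themselves carried these motifs whether or not a peak was there. RefSeq promoters, from 250 bp before to 50 bp after the start, matched 69 of the 78 genes, and 42 of the 69 (60.9%) held at least 1 NRF1, ETS or YY1 match. The ETS motif was in 24 (34.8%, 23.7 to 47.2), against 12.3% of 16522 protein-coding promoters. The NRF1 motif was in 18 (26.1%, 16.3 to 38.1), against 9.37%, and the YY1 motif in 11 (15.9%, 8.24 to 26.7), against 3.47%. All 3 shares over all promoters lay below the family's intervals. When the family was divided by a peak within 1 kb of the 5′ end, ETS was in 14 of 39 promoters with a peak (35.9%) and in 10 of 30 without (33.3%). NRF1 was in 28.2% with and 23.3% without a peak. For YY1 the shares were 7.69% (1.62 to 20.9) with and 26.7% (12.3 to 45.9) without, with overlapping intervals. The insulin response sequence was in 3 promoters of the family (4.35%, 0.906 to 12.2), against 9.65% of all, which lies inside the family's interval.

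**Figure D5:**
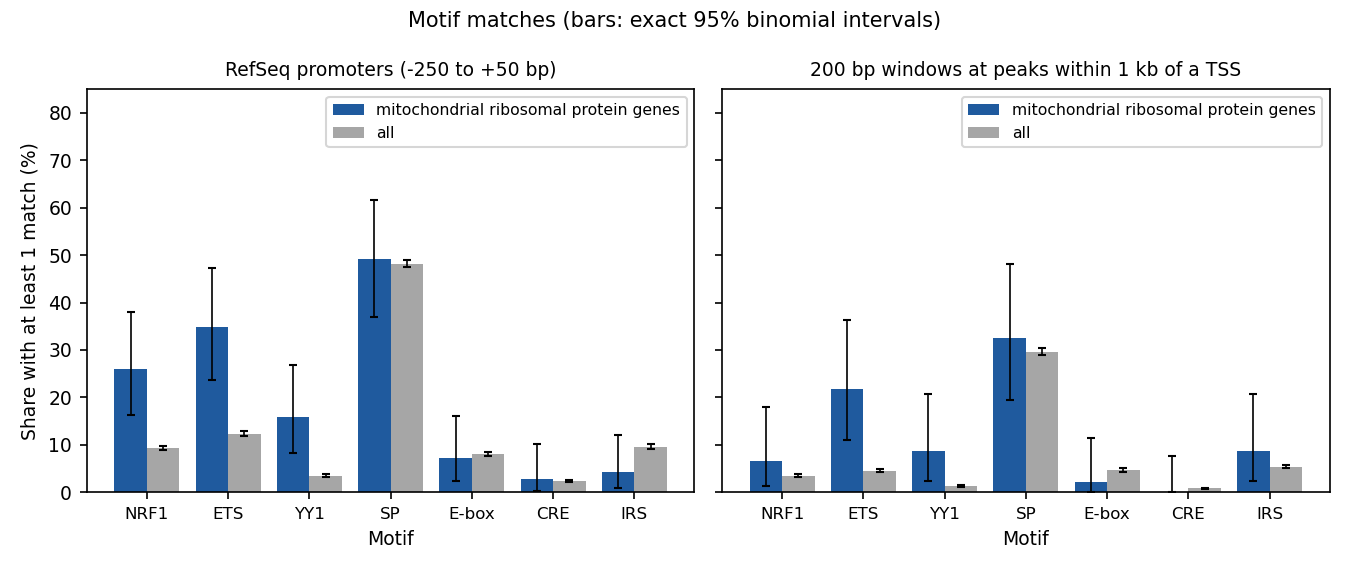
Share in percent of RefSeq promoters (left) and of 200 bp windows at peaks within 1 kb of a TSS (right) with at least 1 match to each motif, for the family (blue) and all protein-coding promoters or all peaks (grey), with exact 95% binomial intervals. The blue bar for ETS stands at 34.8% on the left and 21.7% on the right, above the grey bars of 12.3% and 4.54%.

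The proteins and factors around the ribosome were examined in lists fixed by name. Of 5 mitochondrial ribosomal proteins with other names, Dap3, a GTP-binding protein of the small subunit, had an assigned peak within 1 kb (106), and so did Ptcd3 (147). Chchd1, Aurkaip1 and Gadd45gip1 had none, although a peak lay 14 bp from the start of Chchd1. Of 40 annotated genes for mitochondrial transcription, ribosome assembly and translation, 23 had an assigned peak within 1 kb (57.5%, 40.9 to 73.0). The share over all protein-coding genes, 41.6%, lies inside that interval. By any peak within 1 kb of the 5′ end the share was also 57.5% (40.9 to 73.0). Over all protein-coding genes it was 38.1%, below that interval. Among the 23 with an assigned peak were Mterf3 (307), a regulator of mitochondrial transcription, and Tfb1m (237), the methyltransferase of the small ribosomal RNA. Mtg1 (214) and Nsun4 (209) act in ribosome assembly, and Oxa1l (185) inserts new proteins into the inner membrane. Tfam, which packages mitochondrial DNA, had 2 peaks within 1 kb with a maximum of 96. Gfm2 had no assigned peak within 1 kb. Neither had Mtif2, Mtif3, Tsfm and Gfm1, factors of initiation and elongation, while the elongation factor Tufm had 3, the highest at 102.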

How the data were processed

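The authors made CUT&Tag libraries with anti-FLAG and anti-IgG antibodies. Reads were processed with Bowtie2, SEACR and deepTools on mm10, per the submitters' processing notes; versions, the SEACR mode and the signal scaling are not given in the sources used here. The deposited peak list gives total and maximum signal (coverage) per peak, and a deposited table gives the assigned gene and distance to the TSS. Depth is unknown, and files of the IgG library were not analysed here: it served only as the control in SEACR, per the labels' protocols.

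Peaks were joined to the table and to GRCm38.p6 and GENCODE M21 with Python 3.11.15, pandas 2.3.3, numpy 2.4.6, scipy 1.17.1 and pysam 0.24.0, and plotted with matplotlib 3.10.9. Coordinates count from 1. The start of a gene is the 5′ end of its GENCODE record. Distance from a gene's 5′ end was measured to the region of maximum signal. Peaks of constant height have a total of at least 99% of maximum times width. The calculations were tested on simulated data. Shares carry exact 95% binomial intervals; no test was made, since each antibody has 1 library. Genes named are the highest, lowest and widest gene-start peaks, the genes with the most peaks, the farthest peaks, and genes with no, several or only constant-height peaks near a TSS; other genes named beside them were chosen after their values were seen. The members, lists and motifs were chosen with earlier results of these data known. Alternatives left out peaks of constant height or below the median signal, or changed distances, windows, thresholds and the assignment of peaks.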

Additional observations from a re-analysis of the deposited data

How the results depend on the processing

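The 8 results were recomputed under 25 alternatives, of which 3 were chosen after seeing the data. The value stayed within its counting interval, or the count within 1.5 times, under 16 of them. With peaks of constant height left out, the family had 59 peaks, 45.8% of them within 1 kb of a TSS (23.2% of all peaks), 25.6% of genes had an assigned peak there (28.3% of all genes), and the median maximum signal was 152 (160 over all). With peaks above the median signal only, there were 76 peaks, 28.2% of genes had one within 1 kb (29.6% of all genes) and 48.7% were of constant height (50.9% of all peaks). At a distance of 500 bp, 23.6% of peaks counted as near a TSS (11.5% of all), and at 3 kb 41.9% did (24.6%). These subsets and distances hold fewer or more peaks by construction. Without Mrps6, the gene with the most peaks, 32.8% of peaks lay within 1 kb of a TSS. Any peak within 500 bp of the 5′ end was found for 44.9% of genes (30.9% of all), and one not of constant height within 1 kb for 34.6% (26.2% of all, inside the family's interval of 24.2 to 46.2). No paired analysis was possible because each antibody has 1 library. Depth is unknown, so a missing peak cannot be read as absence, and error between animals cannot be given.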
